A study of Mus musculus with 9 samples.

Results

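The genes examined here carry cholesterol out of cells or free it inside them: 3 apolipoproteins (Apoe, Apoc1 and Apoc2), 2 ABC exporters (Abca1 and Abcg1), the 2 LXR transcription factors (Nr1h3, which encodes LXRα, and Nr1h2, which encodes LXRβ) and 3 genes of lysosomal cholesterol release (Lipa, Npc1 and Npc2). They were chosen by symbol for their function, with earlier results of these data known. All 10 are among the 16367 genes of the deposited table of sorted cells, and all 10 passed the filter on low values that left 14403 genes for the test. In the table of cultured cells, which has 17035 genes, 8 of the 10 appear, and Apoc1 and Apoc2 are not listed.

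RNA sequencing was done on mouse cells labelled Müller glia, the radial glia that span the retina. All 9 libraries came from wild-type (WT) mice, and the labels give the C57BL/6J strain for the cultured cells. The 6 sorted libraries each held 4 pooled neural retinas whose cells were caught on magnetic beads through the glutamate transporter GLAST after dead cells had been removed. The 3 sham libraries came from mice given a cut in the cornea and no oil, and the 3 ocular hypertension (OHT) libraries from mice given 1.2 µL of silicone oil in the front chamber of both eyes, a model of chronic mild pressure increase. Neither the ages of the sorted mice nor the interval after the injection is given in the sources used here. The 3 primary cultures were started from pups 8 to 10 days old, grown in medium with serum, passaged and left untreated. They thus differ from the sorted cells in growth in a dish and in the lack of a bead sort. Whether they also differ in age cannot be told from these sources.

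Apolipoprotein E is the main lipid carrier that glia secrete in the retina and brain, and microglia and macrophages also make it. Cholesterol enters lysosomes as esters, the acid lipase encoded by Lipa cuts them, NPC2 hands the free sterol to NPC1 in the lysosomal membrane, and ABCA1 and ABCG1 load what leaves the cell onto apolipoprotein particles. Oxysterols, made when sterol is plentiful, bind the LXR factors, and Abca1, Abcg1, Apoe and Apoc1 are textbook LXR targets.

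The promoters of Abca1 and Lipa are shown because this pair of members had the highest Pearson r over the sorted libraries, and that of Apoe because it was the most abundant member there. Each is the 250 bases before the most upstream start that RefSeq lists for the gene (assembly GRCm38.p6, minus strand), and capitals mark matches to the motifs searched. On both strands these were the nuclear receptor half-site AGGTCA, the E-box CACGTG, the TATA box TATAAA, the GC box GGGCGG, the spaced repeat of the half-site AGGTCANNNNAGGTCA and the looser repeat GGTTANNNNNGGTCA. Positions are counted back from that start.
Abca1 (chr4:53159896-53160145): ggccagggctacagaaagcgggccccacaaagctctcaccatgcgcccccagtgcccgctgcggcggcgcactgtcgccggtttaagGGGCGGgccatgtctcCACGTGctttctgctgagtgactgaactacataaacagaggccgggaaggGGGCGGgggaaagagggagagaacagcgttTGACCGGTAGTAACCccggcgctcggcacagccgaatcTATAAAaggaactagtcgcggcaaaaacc
Lipa (chr19:34527475-34527724): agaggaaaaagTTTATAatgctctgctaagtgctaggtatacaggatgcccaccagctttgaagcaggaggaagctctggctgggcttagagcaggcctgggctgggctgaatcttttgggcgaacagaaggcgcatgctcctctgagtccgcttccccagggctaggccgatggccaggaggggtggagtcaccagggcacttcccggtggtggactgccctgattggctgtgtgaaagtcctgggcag
Apoe (chr7:19699189-19699438): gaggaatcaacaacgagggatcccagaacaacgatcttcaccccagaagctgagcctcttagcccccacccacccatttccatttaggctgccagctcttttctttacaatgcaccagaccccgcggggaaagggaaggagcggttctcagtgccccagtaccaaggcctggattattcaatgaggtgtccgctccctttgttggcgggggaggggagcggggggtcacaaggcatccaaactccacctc
The Abca1 window held TATAAA at -29 to -24, CACGTG at -147 to -142 and GGGCGG beginning at -163 and at -97. It also held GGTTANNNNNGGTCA on the minus strand at -67 to -53, a loose form of the repeated half-site that LXR binds together with its RXR partner. This loose spelling was chosen with the Abca1 window in view, and 15 of 32851 windows of the same length in the table (0.0457%) hold it. The strict repeat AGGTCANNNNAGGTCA was in 5 windows (0.0152%) and in none of these. In the Lipa window TATAAA was found on the minus strand at -239 to -234, and in the Apoe window none of the patterns was found. Of all windows, 14.0% hold the half-site, 6.02% the E-box, 12.4% the TATA box and 32.7% the GC box, and a match is only a run of letters.

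The question the design puts to these genes is whether their levels in GLAST-sorted cells differ between OHT and sham eyes. In the OHT libraries 6 members, Apoc1, Apoc2, Abca1, Abcg1, Lipa and Npc2, were higher than in every sham library, which 9.26% of the 14403 genes tested also were. Apoe, Nr1h2, Nr1h3 and Npc1 overlapped between the groups. None of the 10 passed limma's test at an adjusted p of 0.05, and neither did any other gene, a share of 0% called. At an unadjusted p under 0.05, limma had 1680 genes, 773 higher (5.37% of all tested) and 907 lower in OHT, and the same 6 members were among the higher ones. In DESeq2 on the reads recovered from the table, 54 genes (0.375%) were called higher and 196 lower, and 2 members, Apoc1 and Abcg1, were among the 54. edgeR called none. The members' median log2 difference was 1.29 beside -0.12 for all genes tested, and since the members were chosen with results of these data known, these shares and medians are a description.

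Values below are normalised read counts, that is reads divided by a factor for each library, unless given as ppm, reads per 1e6 reads of the library's total. The sorted libraries held 37.8 to 53.6 M (1e6) reads and the cultures 66.3 to 76.7 M, with the OHT libraries (49.4 ± 3.59 M, SD, n = 3) deeper than the sham libraries (41.6 ± 3.44 M, n = 3). The 12 Müller glia markers were all found in each library, at 0.349 to 0.862% of the reads in sham and 0.188 to 0.401% in OHT. The 12 listed markers of microglia and macrophages summed to more, 3.37 to 5.24% in sham and 4.47 to 6.13% in OHT, and none of them was at 0 in any sorted library, so the sorted fraction carried RNA of these cells. Their groups overlapped (exact permutation p = 0.3, two-sided). In normalised counts 5 of the 12 had every OHT value above every sham value and 0 had every value below, beside 9.26% and 9.18% of all genes. For Ctss, 1 of the 5, the groups overlapped in ppm, with OHT 2 at 14992.4 under sham 1 at 15417.6. The 8 markers of monocytes and border macrophages were at 0.142 to 0.810% in sham and 1.28 to 1.52% in OHT without overlap (exact permutation p = 0.1, the smallest that 3 against 3 can give), most of it Lyz2. In normalised counts 1 of the 8, Lyz2, was higher in OHT without overlap and 0 were lower, beside 9.26% and 9.18% of all genes. The 12 rod markers summed to 0.282, 2.66 and 2.13% in sham 1, 2 and 3 and to 0.0992 to 0.349% in OHT, with overlap (exact permutation p = 0.2). Genes of the mitochondrial genome (15) took 14.1 to 19.6% of sham reads and 2.2 to 6.13% of OHT reads (exact permutation p = 0.1). The part of these shifts in the values of the members was not tested, apart from the comparison with the microglia list given further on. In such bulk libraries, fewer cells of a type and less RNA per cell cannot be told apart.

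**Figure D1:**
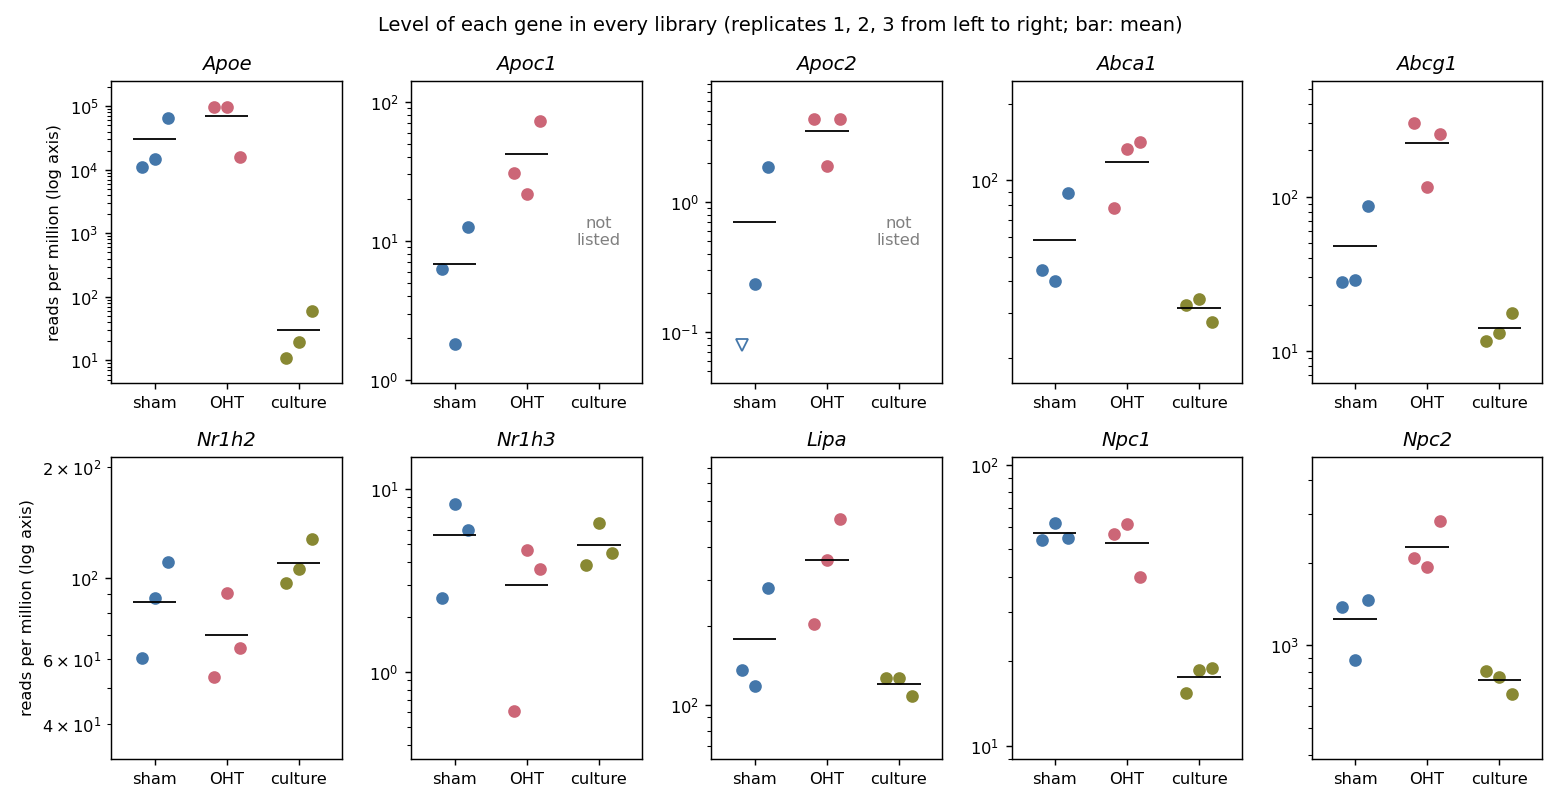
Level of each of the 10 genes in every library, in ppm of the library's total reads on a log axis, with 1 point per library and a bar at the group mean. The open triangle marks the limit of 0.0793 ppm that a count of 0 allows for Apoc2 in sham 1. Apoe spans the sorted libraries widely and lies far lower in the cultures, while Nr1h2 is at similar levels in all 3 groups.

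Apoe was the most abundant member in every sorted library, and its level varied 6.34-fold among the sham and 10.9-fold among the OHT libraries. It was at 440100.5, 583836.7 and 2790804.6 normalised counts in sham 1, 2 and 3, and at 6506941.0, 4266818.9 and 596830.9 in OHT 1, 2 and 3. The groups overlapped through 1 library of each, since sham 3 was far above the other sham libraries and OHT 3 was close to sham 2. As a share of all reads, Apoe took 1.13, 1.48 and 6.56% in the sham libraries and 9.89, 9.67 and 1.58% in the OHT libraries. It was the gene with the most reads of all in OHT 1 and OHT 2, and ranked 2 in sham 3, 3 in OHT 3, 5 in sham 2 and 7 in sham 1. The log2 difference between OHT and sham was 1.51 (SE 0.99, 95% interval -0.67 to 3.69), within the spread between libraries. In limma its adjusted p was 0.545, and the exact two-sided permutation p was 0.2. Without OHT 3 it was 2.56, without sham 3 it was 2.33 and without OHT 1 it was 0.83, none of them past the adjusted threshold.

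Apoe has a GC-rich transcript, 59.5% in the longest GENCODE M21 model, at the 93.8 percentile of the genes in the table. The deviations of OHT 3 from the gene means had a Spearman rho of -0.21 with GC content across 13849 genes, against -0.07 in OHT 1 and 0.14 in OHT 2. In sham 1, 2 and 3 it was 0.03, 0.10 and 0.17. With transcript length, rho ran from -0.25 in OHT 1 to 0.19 in sham 2, and was 0.05 in OHT 3. After a correction of each library for GC content and length, chosen after seeing the data, the Apoe difference was 1.79 (limma adjusted p = 0.421) and the groups still overlapped.

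**Figure D2:**
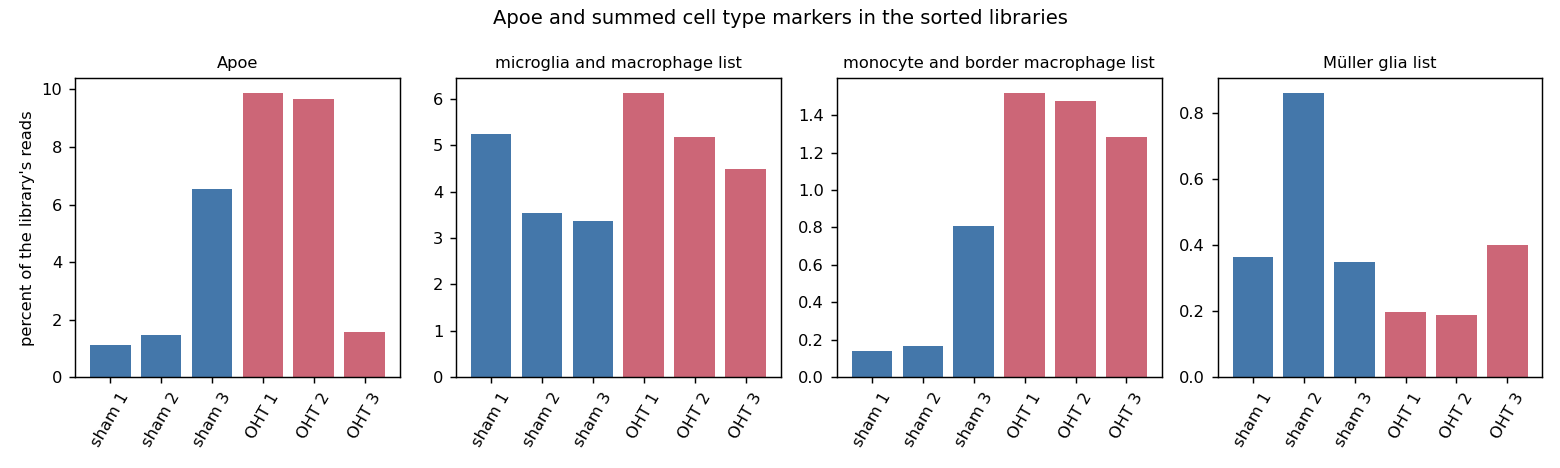
Percent of each sorted library's reads taken by Apoe and by 3 summed lists of cell type markers, with 1 bar per library (sham blue, OHT red). Apoe is high in sham 3, OHT 1 and OHT 2, the monocyte and border macrophage list is high in sham 3 and all OHT libraries, and the microglia list follows neither order.

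Apoc1 and Apoc2 lie in the same gene cluster as Apoe and encode small exchangeable apolipoproteins, of which apolipoprotein C-II is the cofactor of lipoprotein lipase. Apoc1 was at 244.8, 71.95 and 533.9 normalised counts in the sham libraries and at 2014.6, 964.8 and 2763.1 in the OHT libraries. Every OHT value was above every sham value, and OHT 3, the lowest OHT library for Apoe, was the highest of all for Apoc1. The log2 difference was 3.04 (SE 0.73, 95% interval 1.45 to 4.64, limma adjusted p = 0.332), and DESeq2 gave 2.76 with an adjusted p of 0.00791.

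Apoc2 was the scarcest apolipoprotein of the 3, with 0, 9.224 and 79.42 normalised counts in sham 1, 2 and 3 and 286.0, 83.14 and 162.7 in OHT 1, 2 and 3. The groups did not overlap, though sham 3 and OHT 2 were nearly equal. Its log2 difference of 4.08 (SE 1.55, 95% interval 0.68 to 7.47, limma adjusted p = 0.372) moved with single libraries and with the pseudocount of 1. It was 2.46 without sham 1, 5.63 without sham 3 and 2.7 with a pseudocount of 10, and the count of 0 in sham 1 allows up to 0.0793 ppm. Apoc2 and its neighbour Apoc4 share sequence with a read-through gene of the same strand, Gm44805, which is not in either table, so reads of the 3 may have been split in the counting.

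Abca1, which exports cholesterol and phospholipid to lipid-poor apolipoproteins, was at 1739.7, 1577.3 and 3803.4 normalised counts in sham and at 5108.2, 5890.7 and 5360.4 in OHT. In these counts the OHT libraries lay close together and above sham 3, itself well above the other sham libraries. The log2 difference was 1.32 (SE 0.39, 95% interval 0.45 to 2.18, limma adjusted p = 0.332). In ppm the OHT libraries were further apart, at 77.6, 133.5 and 141.9, and OHT 1 fell under the 89.4 ppm of sham 3. The groups also overlapped after quantile normalization.

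Abcg1, which passes cholesterol on to particles that already hold lipid, had 1087.8, 1131.8 and 3682.8 normalised counts in sham 1, 2 and 3 and 19601.2, 5116.9 and 9679.8 in OHT 1, 2 and 3. Again sham 3 was the highest sham library and all OHT values were above it. The log2 difference of 2.58 (SE 0.57, 95% interval 1.34 to 3.82) had a limma adjusted p of 0.332 and a DESeq2 adjusted p of 0.00449 at 2.54. The groups stayed apart in ppm, with 27.8, 28.8 and 86.6 ppm in sham and 297.9, 116.0 and 256.3 ppm in OHT.

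Both LXR factors overlapped between the groups. Nr1h2, expressed in most tissues, was at 2356.5, 3459.9 and 4680.8 normalised counts in sham and at 3533.1, 4015.5 and 2427.4 in OHT. These ranges overlapped, and the log2 difference was -0.05 (SE 0.38, 95% interval -0.88 to 0.78, limma adjusted p = 0.962), an interval that holds changes of under 2-fold in either direction. Its sign was not stable: the difference was 0.59 after the GC and length correction, with the groups then apart, and 0.19 without sham 3 and 0.16 without OHT 3. Nr1h2 has the most GC-rich transcript of the members (60.6%, the 96.1 percentile).

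Nr1h3, typical of macrophages, liver and fat, was scarce. It was at 99.18, 323.8 and 252.6 normalised counts in sham and at 40.07, 205.8 and 138.6 in OHT, with sham 1 inside the OHT range. The log2 difference was -0.93 (SE 0.90, 95% interval -2.91 to 1.05, limma adjusted p = 0.673). Per kilobase of the longest coding transcript model, the average of Nr1h3 was 2.85 ppm for sham and 1.53 for OHT, beside 43.1 and 34.9 ppm for Nr1h2.

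Of the 3 genes of lysosomal cholesterol release, Lipa and Npc2 had every OHT value above every sham value in normalised counts, and Npc1 did not. Lipa, the acid lipase gene, was at 5335.9, 4649.8 and 11873.3 normalised counts in sham and at 13394.4, 15791.9 and 19250.6 in OHT. The OHT values were above all sham values, by least between sham 3 and OHT 1, and that gap closed in ppm (279.0 in sham 3, 203.6 in OHT 1) and after quantile normalization. The log2 difference was 1.26 (SE 0.39, 95% interval 0.40 to 2.12, limma adjusted p = 0.332).

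Npc2, the soluble lysosomal sterol carrier, was the second most abundant member. It had 54104.5, 34906.4 and 62402.7 normalised counts in sham and 136477.2, 84823.8 and 106765.5 in OHT, without overlap. The same held in ppm, where sham lay between 887.4 and 1466.5 and OHT between 1922.7 and 2826.5. Its log2 difference was 1.13 (SE 0.38, 95% interval 0.30 to 1.96, limma adjusted p = 0.343).

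Npc1, the membrane partner, was even across the sham libraries at 2107.5, 2448.1 and 2339.5 normalised counts and ranged from 3744.5 in OHT 1 through 2714.8 in OHT 2 to 1508.2 in OHT 3. The OHT values thus lay on both sides of the sham values. The log2 difference of 0.12 (SE 0.40, 95% interval -0.76 to 0.99, limma adjusted p = 0.911) changed sign with quantile normalization, with array weights and without OHT 1. Npc1 overlaps Rmc1 on the opposite strand, which is in both tables, and no source used here states whether the counting used strand.

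**Figure D3:**
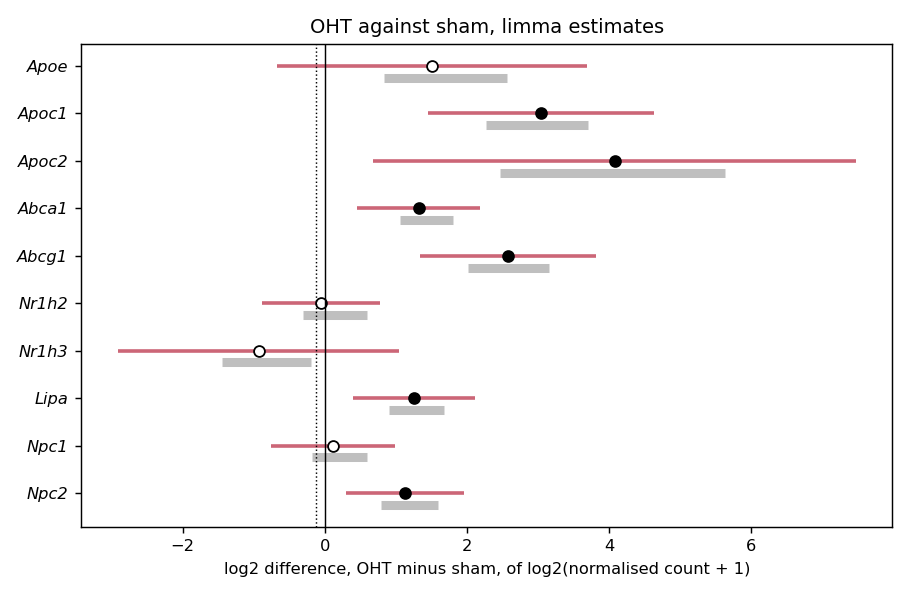
Log2 difference between OHT and sham for each gene (points, limma estimates on log2 of the normalised count plus 1) with its 95% interval (red) and, in grey, the range of the estimate over 18 alternative settings. Filled points mark the 6 genes whose groups did not overlap, the solid line is 0 and the dotted line the median of all genes tested, -0.12.

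Sham 3 held the highest sham value of 8 members, namely Apoe, the 6 whose groups did not overlap, and Nr1h2, whose OHT and sham ranges overlapped. Sham 1 and sham 2 had no such common order, as Apoe, Apoc2, Abcg1 and Nr1h2 were higher in sham 2 and Apoc1, Abca1, Lipa and Npc2 in sham 1. Over the 6 sorted libraries, Pearson's r of the log2 values was 0.98 for Abca1 with Lipa (Spearman's rho 0.94), 0.97 for Apoc1 with Npc2 (rho 0.94) and 0.95 for Abcg1 with Npc2 (rho 0.94). By rank the closest pair was Apoc2 with Abcg1, at a rho of 1.00 (r = 0.90). Apoe had r from 0.49 with Apoc1 (rho 0.60) to 0.76 with Npc1 (rho 0.71), and -0.32 with Nr1h3 (rho -0.26). The r of Apoc1 with Npc1 was -0.02 and with Nr1h2 -0.07. These 45 correlations have n = 6, come from genes that share the same libraries and scaling, and include the difference between the groups, so they are a description.

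Of the 5550 genes averaging 1000 or more normalised counts, the 5 whose log2 values followed Apoe most closely over the 6 libraries were Gdf15 (r = 0.996), Gpi1 (0.984), Ifit1 (0.978), Paox (0.975) and Plin3 (0.975). The closest to Abca1 were Mmp12 (0.992), Fabp5 (0.992), Coq7 (0.989), Mrps23 (0.987) and Cyb5r3 (0.987). The groups overlapped for all 5 genes nearest Apoe and were apart for all 5 nearest Abca1, as they were for Apoe and Abca1 themselves. Since these genes were picked for following Apoe or Abca1 over the same 6 libraries, this likeness is largely built in by the choice. Fabp5, a fatty acid carrier, had a log2 difference of 3.67 (limma adjusted p = 0.332) and Mmp12, a macrophage elastase, 2.15 (limma adjusted p = 0.332).

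Because microglia and macrophages make several of these products, each member was also set against the mean log2 value of the 12 microglia and macrophage markers in the same library. That mean was 0.41 higher in OHT than in sham (exact permutation p = 0.3, two-sided). Relative to it, Apoc1 was 2.64 higher in OHT with no overlap (exact permutation p = 0.1). The differences of Apoc2 (3.67), Abcg1 (2.17), Apoe (1.10), Abca1 (0.91), Lipa (0.86) and Npc2 (0.72) kept their sign with overlapping groups (exact permutation p of 0.2 to 0.4). Nr1h2, Nr1h3 and Npc1 were at -0.46, -1.34 and -0.29.

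The wider lists of lipid transport genes, 83 genes in 7 lists of which 75 were tested, held genes that were higher and genes that were lower in OHT. None passed limma's adjusted threshold and 1, Apoc4, passed in DESeq2. At an unadjusted p under 0.05 limma had 10 higher and 7 lower in OHT (13.3% and 9.33%), beside 5.37% and 6.3% of all genes tested. The groups did not overlap for 12 higher and 6 lower (16% and 8%), beside 9.26% and 9.18% of all genes, and the median log2 difference was 0.02, beside -0.12. The shares and the median of all genes are the background for each list below. The genes named from each list are up to 2 per direction by smallest p in limma, which is not a call.

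Among other apolipoproteins and plasma lipid enzymes, 3 of 8 tested genes were higher without overlap (37.5%, beside 9.26% of all genes), none was lower (9.18% of all genes), and the median was 1.16. Lpl, the lipoprotein lipase that apolipoprotein C-II activates, was at 1123.0, 406.8 and 2882.9 normalised counts in sham and 4317.9, 5346.6 and 6631.4 in OHT (log2 difference of 2.29 with SE 0.59 and adjusted p = 0.332 in limma). Apoc4, the neighbour of Apoc2, was at 61.98, 17.53 and 131.1 in sham and 692.2, 404.2 and 357.4 in OHT (3.12, SE 0.89, limma adjusted p = 0.332, DESeq2 adjusted p = 0.0318). In the other direction, Lcat, which esterifies cholesterol on lipoproteins, was at 1283.1 and 1041.0 in sham 2 and 3 but at 11.36 in sham 1 and 22.11, 0 and 19.23 in OHT, so its difference of -5.04 (SE 1.87) came with overlapping groups. Clu, the other large apolipoprotein of glia, ranged from 44873.9 to 148862.7 in sham and from 42568.3 to 61424.6 in OHT (-0.89, SE 0.46). The rod marker list was also low in sham 1, at 0.282% of reads against up to 2.66% in the other sham libraries and 0.0992 to 0.349% in OHT. The part of rod RNA in the Lcat values was not tested.

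The receptors that take lipoproteins back up had a median of -0.34 over 12 genes, of which 1 was higher and 1 lower without overlap. Lrp2 (megalin) was lower in all OHT libraries, at 211.8 to 632.8 normalised counts in sham and 13.82 to 160.3 in OHT (log2 difference of -3.09 with SE 1.05 and adjusted p = 0.343 in limma). Vldlr had a similar difference of -3.15 (SE 1.07) with overlap at sham 1. Msr1, a macrophage scavenger receptor, differed by 1.17 (SE 0.44), and Lrpap1, the receptor chaperone, by 0.29 (SE 0.30), each with overlap.

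Of 11 other ABC transporters, 1 was higher and 2 were lower without overlap, with a median of -0.81. Abca7 was at 343.1 to 421.5 normalised counts in sham and 437.9 to 728.2 in OHT (log2 difference of 0.55, SE 0.53), and Abca3 differed by 0.09 (SE 0.66). Abca5 was lower in all OHT libraries (-1.55, SE 0.72), and Abca4, the retinoid flippase of photoreceptor discs, differed by -1.74 (SE 0.76) with overlap.

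Among 11 tested LXR partners, co-regulators and further targets, the median was 0.02 and only Smpdl3a was apart. Smpdl3a, an LXR-induced phosphodiesterase in macrophages, was at 625.0, 1101.3 and 2969.0 normalised counts in sham and 5153.8, 3856.6 and 3768.9 in OHT (log2 difference of 1.73 with SE 0.52 and adjusted p = 0.332 in limma). Srebf1, the lipogenic LXR target, pointed the other way with overlap (-1.32, SE 0.63). The differences of Rxrg and Rxrb, which encode RXR partners, were 1.07 (SE 0.74) and -0.77 (SE 0.67), also with overlap.

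Of 15 genes for lipid handling in late endosomes and lysosomes, 2 were higher and 1 lower without overlap, with a median of 0.08. Lamp2, a main lysosomal membrane protein, was at 19878.5, 15489.0 and 22558.3 normalised counts in sham and 48385.3, 24939.1 and 28744.5 in OHT (log2 difference of 0.77, SE 0.36). Gpr137b, a lysosomal membrane protein, differed by 1.42 (SE 0.45). Osbpl1a, an oxysterol-binding protein of late endosomes, was lower in all OHT libraries (-0.93, SE 0.41), and Tfeb, a main regulator of lysosomal genes, differed by -0.90 (SE 0.62) with overlap.

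For ester storage, lipid droplets and sterol transfer, 3 of 12 genes were higher without overlap (25%, beside 9.26% of all genes), none was lower (9.18% of all genes), and the median was 0.52, beside -0.12. Tspo, a sterol-binding protein of the outer mitochondrial membrane and a marker of reactive microglia, was at 5159.0 to 10801.7 normalised counts in sham and 15313.5 to 21423.7 in OHT (log2 difference of 1.25 with SE 0.35 and adjusted p = 0.332 in limma). The lipid droplet coat gene Plin2 differed by 1.24 (SE 0.41), with OHT 1 at 8170.1 just under sham 3 at 8744.5. The sterol carriers Gramd1a and Stard4 were at -0.42 (SE 0.44) and -0.41 (SE 0.57).

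Oxysterol enzymes split. Ch25h, which makes the LXR ligand 25-hydroxycholesterol, was at 429.8, 472.3 and 854.5 normalised counts in sham and 1609.7, 1613.4 and 1268.6 in OHT (log2 difference of 1.41 with SE 0.45 and adjusted p = 0.332 in limma). Cyp27a1, which makes another oxysterol, differed by 0.49 (SE 0.46) and Cyp39a1, which removes them, by -1.61 (SE 0.83), both with overlap. Of the 6 genes of the list 1 was higher and 2 were lower without overlap, and the median was -0.63.

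**Figure D4:**
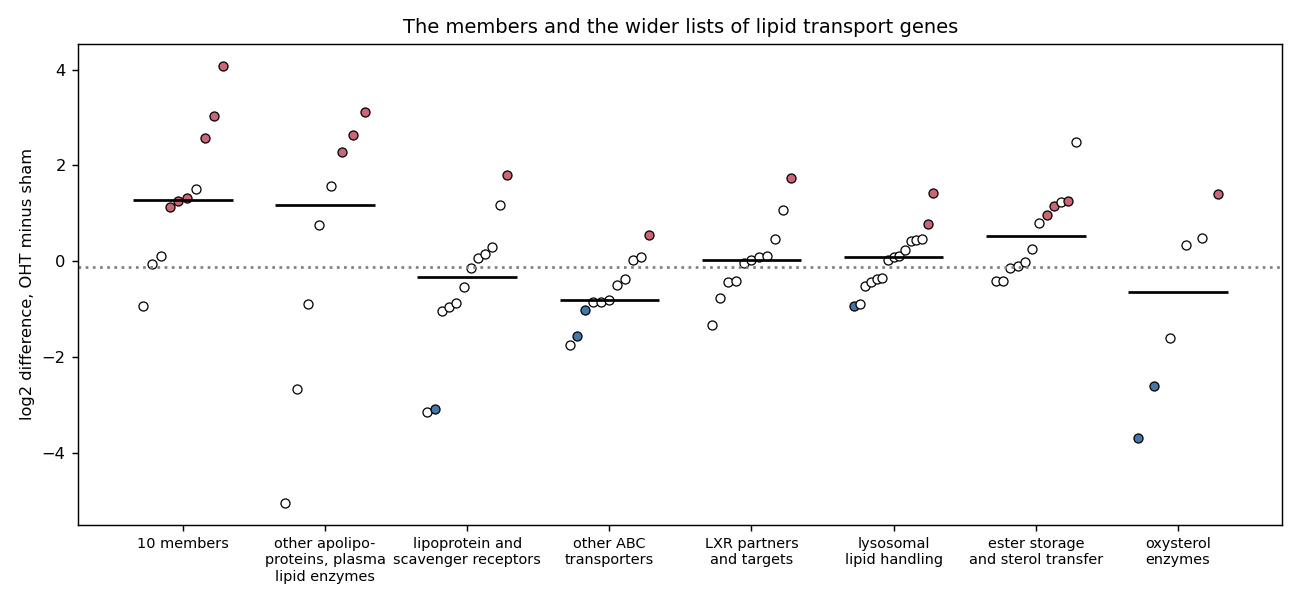
Log2 difference between OHT and sham for each tested gene of the members and the 7 wider lists, 1 point per gene. Red points had every OHT value above, and blue points below, every sham value, white points overlapped, black bars are list medians and the dotted line is the median of all genes tested, -0.12. The members and the other apolipoproteins have the highest medians, 1.29 and 1.16.

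The cultures showed another order of levels. Apoe was at 11.0, 19.5 and 60.7 ppm in cultures 1, 2 and 3, uneven among them, against 11263.5 to 98893.6 ppm in the sorted libraries. The lowest sorted library was 185.5 times the highest culture. In rank Apoe stood at 7971, 6745 and 3381 among the genes of the cultures. As the tables were normalised separately, no test was made across them.

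Abca1 (27.6 to 34.0 ppm), Abcg1 (11.7 to 17.6 ppm), Npc1 (15.4 to 18.9 ppm) and Npc2 (664.5 to 803.9 ppm) were also lower in each culture than in each sorted library, by much less than Apoe. For Abca1 the highest culture was just under the lowest sorted library, at 40.1 ppm, and for Npc2 it lay under 887.4 ppm. Lipa (108.0 to 127.1 ppm), Nr1h2 (96.8 to 127.6 ppm) and Nr1h3 (3.85 to 6.52 ppm) overlapped the sorted range. For Lipa that overlap rested on sham 2 (118.2 ppm), the other 5 sorted libraries lying above all cultures, and its sorted mean was 2.22 times the culture mean, close to the 2.36 times of Npc2.

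Per kilobase of transcript, Apoe was the highest and Npc2 the next highest member in each sorted library, at averages of 21707.0 and 377.7 ppm per kilobase in sham and 50050.2 and 689.4 in OHT. Lipa followed in 5 sorted libraries and Nr1h2 in sham 2, where they stood close at 39.8 and 44.0. In the cultures Npc2 led with 201.4 to 243.7 ppm per kilobase, followed by Nr1h2 with 48.4 to 63.9 and then Lipa, except in culture 3, where Apoe at 43.1 passed Lipa at 36.4. The lower places, held by Abca1, Abcg1, Npc1 and Nr1h3, changed between libraries and were not apart.

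The microglia and macrophage markers, at 0.00995 to 0.0153% of culture reads, were nearly missing from the cultures, and so were the listed monocyte and border macrophage markers (6 of 8 listed, 0.00316 to 0.00602%). The Müller glia markers were low there too, at 0.0242 to 0.0408%, most of it Dkk3. Retinal ganglion cell markers summed to 0.0608 to 0.116%, most of it Stmn2 alone. Amacrine cell markers were at 0.0304 to 0.0378%, most of it Tfap2b alone. Mural cell and fibroblast markers were at 1.66 to 1.96%, most of it Acta2, Col1a1 and Col1a2. Pdgfrb, Cspg4, Col3a1 and Dcn were also above every sorted library. Lum was scarce, at 0.169 to 0.370 ppm, with its lowest culture just above its highest sorted library (0.168 ppm in OHT 1). In contrast, Rgs5, at 2.58 to 3.44 ppm, was below every sorted library. The label of the cultures was thus not borne out by these lists, whose own markers did not all go 1 way. The part of cell makeup in the Apoe level of the cultures was not tested.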

How the data were processed

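Values were deposited as a signal, 1 normalised count per gene and library, which per the deposited values is a read count divided by 1 factor for each library. Dividing by the smallest step gave whole reads for 100% of values (tolerance 0.05 reads), though in culture 3 the step is too near 1 to check this. The submitters' processing notes name bcl2fastq 2.20, Trim Galore 0.6.6, FastQC 0.11.9, STAR 2.7.1a and the build mm39. No source used here states the counting program, the gene annotation or the tool that normalized the counts. The tables of sorted and cultured cells were normalized separately, so levels across them are in ppm of the recovered total, with no test. Every column of per-sample values belonged to a sample.

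OHT was compared with sham by limma 3.58.1 (lmFit, eBayes with trend, under R 4.3.3) for the 14403 genes averaging 10 or more, on the scale log2(value + 1), with Benjamini-Hochberg adjustment at 0.05. Fold changes on this scale understate changes of low genes. A read was worth 0.0130 to 0.0264 ppm, and 0 reads leave room for 3, a limit that covers counting error only. Whether the pools of a group came from separate animals beyond the 4 pooled retinas is not stated, so p-values measure the spread between these libraries.

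The members and all lists were chosen with earlier results of these data known. Named genes were the 10 members, up to 2 per direction of each wider list with the smallest limma p and a mean of at least 100, and the 5 genes of mean at least 1000 nearest in Pearson r to Apoe and to Abca1. Plin3, on that last list and on a wider list, is counted in both. C1qc and Lamp1 were singled out after their values were seen. Lengths and GC content came from the longest coding transcripts of GENCODE M21 and promoters from RefSeq on GRCm38.p6, neither the build of the notes. RefSeq's table had an entry for 7 of the 10 members.

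Alternatives were pseudocounts of 0.5 and 10, no filter or a mean of at least 100, TMM, quantile normalization, no trend, array weights, a replicate block, and each library left out in turn. On recovered reads, DESeq2 1.42.0 and the quasi-likelihood test of edgeR 4.0.16 were run. A GC and length correction and the overlap counts without each library were added after seeing the data. The fits were tested on simulated data. Python 3.11.15 with scipy 1.17.1 ran the exact permutation tests.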

Additional observations from a re-analysis of the deposited data

How the results depend on the processing

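Against no gene called by limma, 2 were called with the replicate block, 250 by DESeq2 (510 genes had no adjusted p there) and 0 to 17 when 1 library was left out (12 without sham 1, all lower, and 17 without sham 3, all higher). DESeq2 called 2 members and 1 gene of the wider lists, Apoc4, against none in limma. Of 180 estimates of a member's difference under alternatives, 172 kept their sign and their side of the threshold, 6 changed sign and 2, Apoc1 (2.76) and Abcg1 (2.54) in DESeq2, passed it. The 6 were Nr1h2 after the GC and length correction (0.59) and without sham 3 or OHT 3 (0.19 and 0.16, range -0.31 to 0.19 over the libraries left out), and Npc1 with quantile normalization (-0.10), with array weights (-0.02) and without OHT 1 (-0.18, range -0.18 to 0.47). The members without overlap numbered 4 of 10 in ppm (5.44% of all genes) and after quantile normalization (9.47%), 7 after the GC correction (12.7%) and 8 without OHT 3 (16.2%). Quantile normalization moved the median of all genes from -0.12 to 0.01 and the GC correction to 0.17. Deviations of same-numbered libraries correlated at 0.078, -0.025 and -0.045. Such values, from 3 libraries a group, cannot decide whether the replicate numbers stand for a pairing. Under the replicate block no member was called in limma, and the lowest adjusted p among them were 0.0842 for Apoc1 and 0.0933 for Abcg1. Of 80 levels in ppm under other totals or without 1 culture, 12 moved by more than 1 SD. With 3 libraries a group, an exact p cannot go under 0.1. The cause of these changes was not tested.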

Other observations

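Apoe in OHT 3 was far below OHT 1 and 2 and close to sham 2. A pair of other abundant genes, chosen after their values were seen, were lower in OHT 3 than in any other sorted library. C1qc, a complement gene of microglia, was at 8088.5 and 6695.5 ppm in OHT 1 and 2 and at 608.3 ppm in OHT 3, while C1qa (2844.8 ppm) and C1qb (8752.5 ppm) in OHT 3 stayed near the other OHT libraries. Lamp1 was at 80079.3 and 73285.3 normalised counts in OHT 1 and 2 and at 13081.6 in OHT 3, while Lamp2 in OHT 3 was at 28744.5. The reads of Apoe per read of Apoc1 were 216.0 in OHT 3 and 1797.5 to 8114.8 in the other sorted libraries. The reads of Npc2 per read of Npc1 were 70.8 in OHT 3 and 14.3 to 36.4 in the others.

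The monocyte gene Lyz2 was at 997.3, 1216.9 and 7530.2 ppm in sham 1, 2 and 3 and at 14571.5, 14496.9 and 11852.2 ppm in OHT 1, 2 and 3. Sham 3 was thus the highest sham library for Lyz2 as it was for 8 of the 10 members. Only part of its marker list shared this order. In ppm, sham 3 was also the highest sham library for Mrc1, Ccr2, Ly6c2 and F13a1 but not for Cd163, Pf4 and Lyve1. Mrc1, Cd163, Pf4, Ly6c2, F13a1 and Lyve1 were lower in OHT 2 than in any other sorted library.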
